A study of Mus musculus with 12 samples.

Results

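The genes described here were 41 members of the bone morphogenetic protein (BMP) and transforming growth factor beta (TGF-beta) pathways, chosen by name from a list of ligands, receptors, Smads, Id targets, extracellular regulators and latent TGF-beta binding or matrix genes. That list was drawn up with earlier results of these data known. All 41 were among the 24470 genes of the count table, and all 41 passed the filter on low counts, as did 15572 genes in all. RNA-seq was performed on whole mouse testes at E14.5, in 6 control pools and 6 conditional knockout (cKO) pools of 3 testes each. Control testes were Nr2f2 f/f without Cre. The cKO testes carried Wt1 CreER on the Nr2f2 f/f background, so both groups carried the floxed allele, in which recombination also switches on a LacZ reporter. Per the study, dams carrying cKO and control embryos were given tamoxifen, which activates CreER, before gonads were collected. The labels do not give the litter of any pool. Nr2f2 encodes COUP-TFII, a nuclear receptor of interstitial progenitor cells of the fetal testis. CreER was driven by Wt1, which is expressed in early gonadal progenitors including those of Sertoli cells, and recombination was incomplete. Each library was a pool of animals, and p-values below measure only the spread between pools.

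BMPs and TGF-betas are secreted dimers that bind paired type I and type II serine/threonine kinase receptors on the cell surface. BMP-bound receptors phosphorylate SMAD1, SMAD5 and SMAD9, TGF-beta-bound receptors phosphorylate SMAD2 and SMAD3, and both kinds enter the nucleus with SMAD4, where the Id genes are well-known BMP targets. Antagonists such as noggin hold BMPs away from their receptors, and latent TGF-beta binding proteins tether inactive TGF-beta to the extracellular matrix. In the fetal gonad, these pathways are known for roles in germ cells, somatic progenitors, blood vessels and smooth muscle.

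The libraries held between 7044531 and 59404778 counted read pairs. The target, Nr2f2, was at 175.5 ± 8.87 CPM (read pairs scaled to library size; SD, n = 6) in control pools and 75.9 ± 24.5 CPM (SD, n = 6) in cKO pools, a log2 fold change of -1.21 (SE 0.16, edgeR adjusted p = 0.000548). Markers of each fixed cell type list were detected, including Amh and Sox9 of Sertoli cells and Pdgfra of interstitial cells. 4 libraries stood apart: Xist, the RNA expressed from the inactive X chromosome of XX cells, was at 304 to 891 CPM in control 1, cKO 3, cKO 5 and cKO 6 and at 5.15 to 7.68 CPM in the other 8. The summed level of 5 ovarian supporting cell markers was 125 to 291 CPM in these 4 libraries and 54.5 to 84.5 CPM in the other 8. The labels call all 12 pools testes, and whether these 4 held XX gonads was not tested. Results below are therefore given also for the other 8, 5 control and 3 cKO pools, called the 8 low-Xist libraries (Xist under 100 CPM). The 3 cKO pools kept there had Nr2f2 at 78.8 to 119 CPM, beside 50.2 to 75.4 CPM in cKO 3, cKO 5 and cKO 6. Where the 8 and the 12 libraries differ, Xist, remaining Nr2f2 and the smaller number of pools cannot be told apart.

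In edgeR's quasi-likelihood fit, at a Benjamini-Hochberg adjusted p of 0.05 over all genes tested, 7 of the 41 members (17.1%) differed between cKO and control testes, beside 8.13% of all genes tested. Of these, 4 members were lower in cKO testes (9.76%, beside 4.85% of all genes), namely Ltbp2, Bmp6, Tgfb2 and Bmp3. The 3 members that were higher (7.32%, beside 3.28% of all genes) were Nog, Bmper and Bmp4. The 6 control and 6 cKO values did not overlap in 5 members (12.2%, beside 5.52% of all genes), which were Ltbp2, Bmp6 and Tgfb2 among the lower and Nog and Bmp4 among the higher ones. The called members were all secreted or matrix proteins. None of the 8 receptors, 8 Smads or 4 Id genes among the members passed the test. At the 8.13% of all genes, few calls would be expected among so few genes. Acvr1c, a receptor outside the members, was called in the same fit (log2 fold change 1.40, edgeR adjusted p = 0.000586). The median log2 fold change of the members was 0.00, and so was that of all genes tested. These shares rested in part on single libraries. Without control 1, 8 of 41 members (19.5%) and 19.9% of all genes were called, so the members' share was then no higher than that of all genes. That fit kept no control with high Xist beside cKO 3, cKO 5 and cKO 6, so the groups in it also differed in Xist. The number of members called fell to 3 without cKO 4 (7.32%, beside 5.24% of all genes) and to 4 without control 6 (9.76%, beside 5.42% of all genes). Ltbp2, Bmp6 and Nog were called with any 1 of the 12 libraries left out. No test compared the members' shares with those of all genes.

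**Figure D1:**
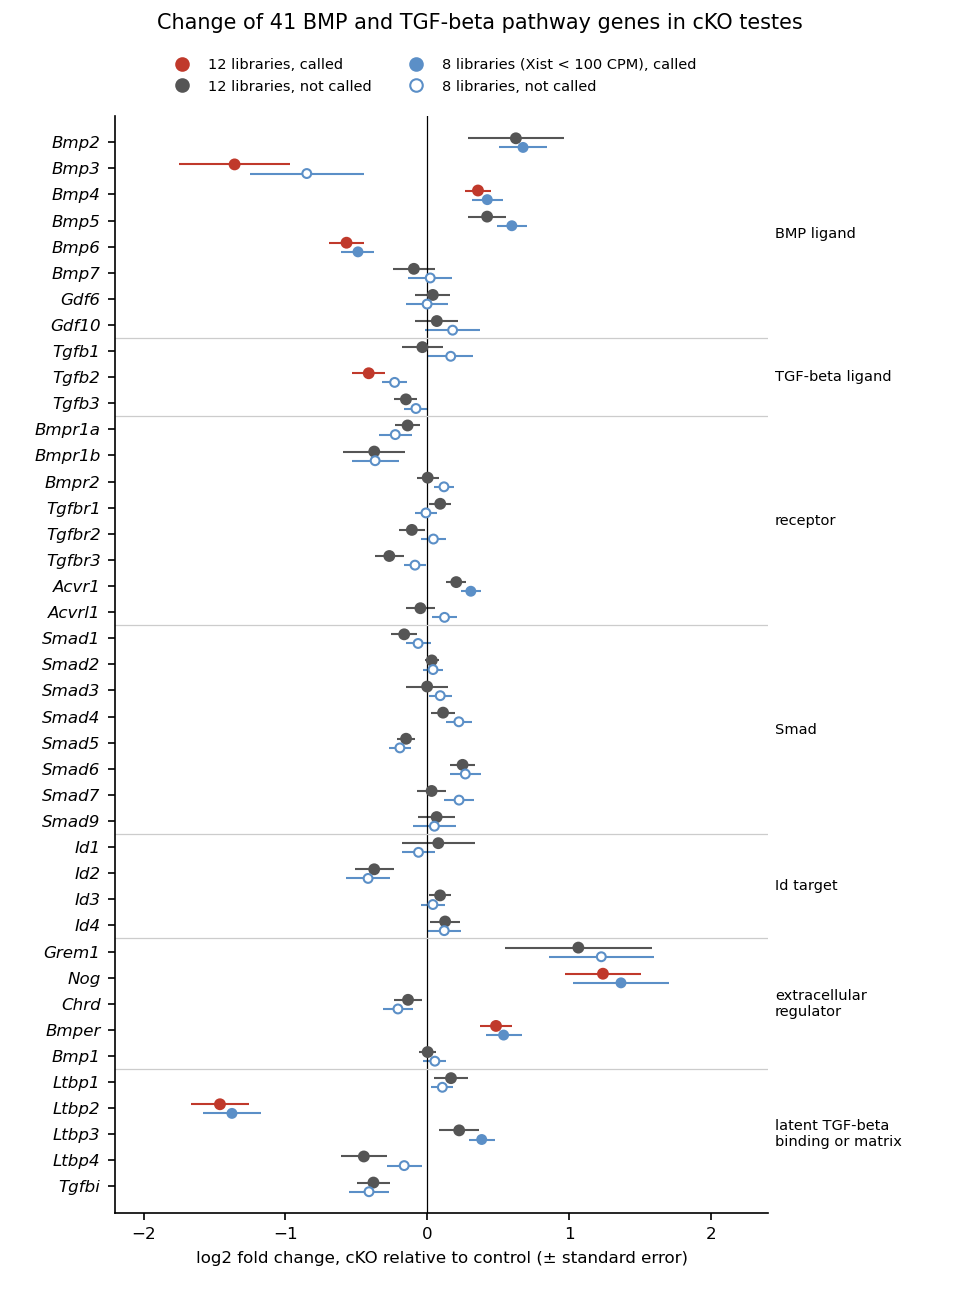
The log2 fold change of cKO against control testes is plotted for each of the 41 members, grouped by role, from all 12 libraries and from the 8 libraries with Xist under 100 CPM. Bars are standard errors; Ltbp2 and Bmp3 lay farthest below 0 and Nog farthest above 0 among the called members.

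Among the 8 BMP ligands, 2 were lower and 1 was higher in cKO testes. Bmp6, a ligand of the BMP5/6/7 subgroup, ranged from 10.3 to 12.5 CPM in control pools, with a median of 10.7 CPM. In cKO pools Bmp6 ranged from 5.43 to 9.02 CPM, with a median of 7.49 CPM. All 6 cKO pools thus lay under the lowest control pool, and the log2 fold change was -0.57 (SE 0.12, edgeR adjusted p = 0.011). Bmp6 kept its call in each of the 21 alternative analyses, among them the 8 low-Xist libraries, where the log2 fold change was -0.49 (edgeR adjusted p = 0.0301).

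Bmp3, a divergent ligand known to oppose BMP signalling, was lowly expressed, with 4 to 169 read pairs per library. It ranged from 1.22 to 4.57 CPM in control pools (median 1.62) and from 0.433 to 1.78 CPM in cKO pools (median 0.734). 5 of 6 cKO pools lay under every control pool, cKO 2 lay within the control range, and the highest value was that of control 1. Its log2 fold change was -1.36 (SE 0.39, edgeR adjusted p = 0.0451). This call was close to the threshold: it was lost without control 1, 3, 4 or 6 and without cKO 1, 3, 4, 5 or 6, at edgeR adjusted p of 0.0543 to 0.0943. Without control 1 the log2 fold change was -0.92, in the other 8 of these fits it was -1.44 to -1.21, and in the 8 low-Xist libraries it was -0.85 (edgeR adjusted p = 0.188).

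Bmp4, a ligand of the BMP2/4 subgroup, ranged from 10.3 to 13.5 CPM in control pools (median 11.8) and from 13.7 to 17.4 CPM in cKO pools (median 15.1). The groups did not overlap, and the log2 fold change was 0.36 (SE 0.09, edgeR adjusted p = 0.0286). The call was lost without control 6 (adjusted p = 0.0651) and without cKO 1 (0.0712), cKO 2 (0.0502) or cKO 4 (0.0638), with log2 fold changes of 0.31 to 0.35. It was 0.42 over the 8 low-Xist libraries (edgeR adjusted p = 0.0445).

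Bmp2 and Bmp5 were called higher in the 8 low-Xist libraries but not in all 12. Bmp2, the other ligand of the BMP2/4 subgroup, ranged from 5.43 to 23.8 CPM in control pools (median 7.66) and from 8.33 to 22.9 CPM in cKO pools (median 14.9). Its highest control value was that of control 1 and its highest cKO values were those of the 3 cKO libraries with high Xist, so the 12-library log2 fold change of 0.62 had a wide error (SE 0.34, edgeR adjusted p = 0.265). Without control 1, which leaves high Xist only among cKO pools, it was 1.12 (edgeR adjusted p = 0.00536). Among the 8 low-Xist libraries, 5.43 to 8.29 CPM in controls and 8.33 to 13.5 CPM in cKO testes did not overlap, with a log2 fold change of 0.67 (SE 0.17, edgeR adjusted p = 0.0379).

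Bmp5, a close relative of Bmp6, ranged from 9.74 to 14.0 CPM in control pools (median 11.2) and from 11.1 to 18.2 CPM in cKO pools (median 16.2). 4 of 6 cKO pools lay above every control pool, and the others, cKO 5 and cKO 6, lay within the control range. The log2 fold change was 0.42 (SE 0.13, edgeR adjusted p = 0.0686). Without control 5 it was 0.49 (adjusted p = 0.0413), and without cKO 6 it was 0.50 (adjusted p = 0.0269). Over the 8 low-Xist libraries it was 0.59 (SE 0.11, edgeR adjusted p = 0.00816), with 10.5 to 14.0 CPM in controls and 17.4 to 18.2 CPM in cKO testes. Bmp5 and Bmp6, ligands of 1 subgroup, thus differed in sign.

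The other 3 BMP ligands did not pass the test in either set of libraries. Bmp7 was at 20.2 ± 5.43 CPM in controls and 19.1 ± 1.42 CPM in cKO testes (SD, n = 6). Gdf6, a ligand known from skeletal and eye development, was at 7.53 ± 1.00 and 7.63 ± 1.07 CPM, and Gdf10, also called BMP3b, was at 25.0 ± 6.70 and 25.8 ± 3.43 CPM. The summed level of the 8 BMP ligands, to which genes with higher CPM contribute more, was 90.2 to 119 CPM in controls and 102 to 113 CPM in cKO testes, and these ranges overlapped.

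Among the 3 TGF-beta ligands, Tgfb2 was lower. It ranged from 71.7 to 87.0 CPM in control pools (median 78.6) and from 40.7 to 70.7 CPM in cKO pools (median 61.7), without overlap. The lowest cKO values, 40.7 and 49.3 CPM, were those of cKO 5 and cKO 6. The log2 fold change was -0.41 (SE 0.12, edgeR adjusted p = 0.0412). It was lost without any 1 of control 2, 3, 4, 5 or 6 or cKO 3, 4, 5 or 6, at edgeR adjusted p of 0.0548 to 0.0955, with log2 fold changes of -0.44 to -0.33. In the 8 low-Xist libraries the groups still did not overlap, at 71.7 to 87.0 and 58.8 to 70.7 CPM, but the log2 fold change was -0.23 (SE 0.09, edgeR adjusted p = 0.129). Tgfb1 was at 24.8 ± 4.76 CPM in controls and 24.2 ± 4.44 CPM in cKO testes, and Tgfb3 was at 44.3 ± 4.44 and 39.7 ± 3.42 CPM (SD, n = 6), neither past the test. Per kb of the longest transcript, Tgfb2 was at 15.4 ± 1.11, Tgfb3 at 13.1 ± 1.31 and Tgfb1 at 9.65 ± 1.85 CPM per kb in control testes (SD, n = 6). Over the union of exons, Tgfb2 at 13.6 and Tgfb3 at 13.1 CPM per kb were closer than the SD of Tgfb3, so whether these 2 stand apart depends on the length used.

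**Figure D2:**
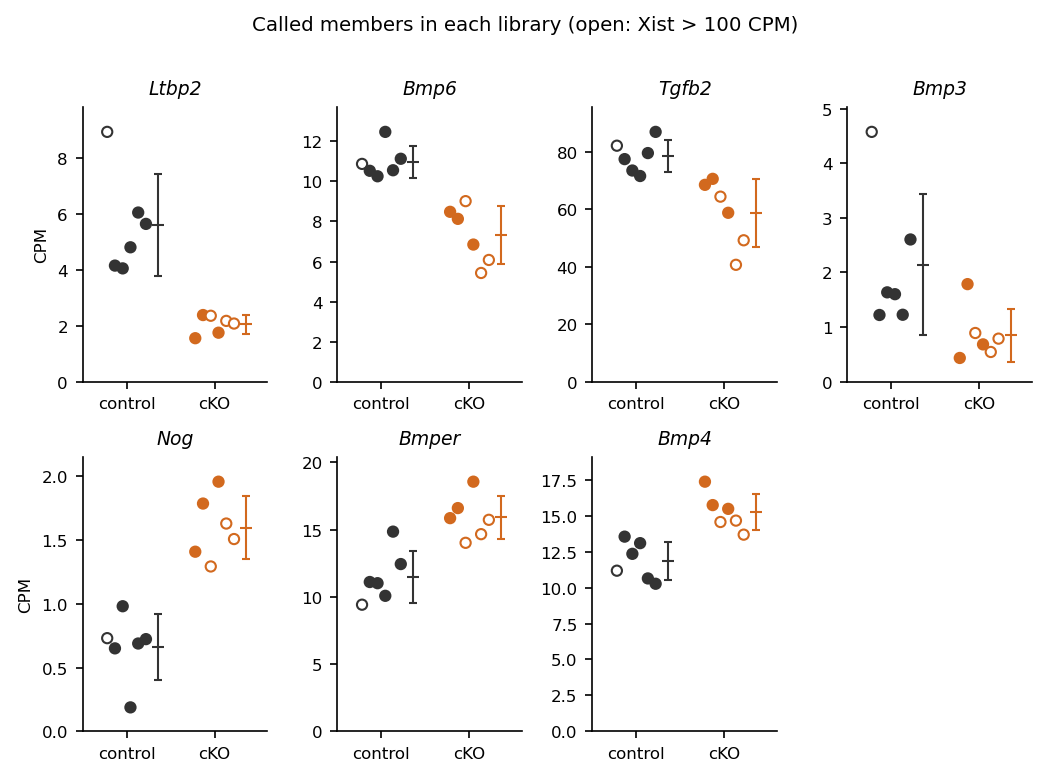
CPM of the 7 members called in all 12 libraries is plotted for each control and cKO pool, with the mean and SD (n = 6) beside the points and open symbols for the 4 libraries with Xist over 100 CPM. Ltbp2, Bmp6 and Tgfb2 were lower in each cKO pool than in any control pool, and Nog and Bmp4 were higher.

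The extracellular regulators held the other 2 members that were higher in cKO testes. Nog encodes noggin, which binds BMP2, BMP4 and BMP7 and blocks their receptor contacts. It was lowly expressed, with 4 to 90 read pairs per library, and ranged from 0.188 to 0.981 CPM in control pools (median 0.706) and from 1.29 to 1.96 CPM in cKO pools (median 1.57). Each cKO pool lay above each control pool. Its log2 fold change was 1.24 (SE 0.27, edgeR adjusted p = 0.011), and 1.36 in the 8 low-Xist libraries (SE 0.34, edgeR adjusted p = 0.0364).

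Bmper, a secreted BMP-binding protein also known as crossveinless-2, ranged from 9.42 to 14.8 CPM in control pools (median 11.1) and from 14.0 to 18.6 CPM in cKO pools (median 15.8). 4 of 6 cKO pools lay above every control pool, and only control 5, at 14.8 CPM, reached into the cKO range. The log2 fold change was 0.48 (SE 0.11, edgeR adjusted p = 0.0169), it was 0.54 in the 8 libraries (edgeR adjusted p = 0.0295), and without cKO 4 it was 0.43 (edgeR adjusted p = 0.0501).

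The remaining extracellular regulators did not pass the test. Grem1, encoding the BMP antagonist gremlin, was at 0.385 ± 0.212 CPM in controls and 0.720 ± 0.460 CPM in cKO testes (SD, n = 6), with a log2 fold change of 1.06 (SE 0.52, edgeR adjusted p = 0.214) and only 1 read pair in control 1. Chrd, encoding the antagonist chordin, was at 8.83 ± 0.777 and 8.07 ± 1.02 CPM, and 5 of 6 cKO pools lay under every control pool. Bmp1, a metalloprotease that cleaves chordin and is not a BMP, was at 164 ± 11.7 and 165 ± 7.09 CPM.

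The strongest difference by adjusted p among the members was that of Ltbp2, which encodes a fibrillin-associated matrix protein and, unlike its relatives LTBP1, LTBP3 and LTBP4, is known not to bind latent TGF-beta. Ltbp2 ranged from 4.05 to 8.93 CPM in control pools (median 5.22) and from 1.55 to 2.38 CPM in cKO pools (median 2.12). The groups were well apart, with the lowest control value above the highest cKO value by more than the whole cKO range. The log2 fold change was -1.46 (SE 0.21, edgeR adjusted p = 0.00075), and -1.38 in the 8 low-Xist libraries (SE 0.20, edgeR adjusted p = 0.00317). With any 1 library left out it stayed between -1.55 and -1.26.

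Ltbp3, which binds latent TGF-beta, was called higher in the 8 low-Xist libraries and not in all 12. It ranged from 92.4 to 188 CPM in control pools (median 116) and from 126 to 162 CPM in cKO pools (median 143), with a log2 fold change of 0.22 (SE 0.14, edgeR adjusted p = 0.331). The control value of 188 CPM was that of control 1, and without it the log2 fold change was 0.39 (edgeR adjusted p = 0.00677). It was 0.38 over the 8 low-Xist libraries (SE 0.09, edgeR adjusted p = 0.0308), with 92.4 to 119 CPM in controls and 135 to 146 CPM in cKO testes.

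Ltbp4, the family member with the highest CPM, was at 356 ± 55.0 CPM in controls and 261 ± 67.4 CPM in cKO testes (SD, n = 6), with a log2 fold change of -0.45 (SE 0.16, edgeR adjusted p = 0.107) and of -0.16 over the 8 low-Xist libraries (edgeR adjusted p = 0.382). Its lowest values were 164 CPM in cKO 5 and 193 CPM in cKO 6, and the other 4 cKO pools, at 277 to 337 CPM, lay within the control range. Ltbp1 was at 132 ± 24.3 and 149 ± 22.02 CPM. Tgfbi, a matrix protein named for its induction by TGF-beta, was at 109 ± 21.8 and 83.8 ± 7.49 CPM, with a log2 fold change of -0.38 (SE 0.12, edgeR adjusted p = 0.0654), and without control 4 it was -0.46 (edgeR adjusted p = 0.0205). The LTBP family therefore moved in no common direction, with Ltbp2 lower, Ltbp3 higher in the 8 libraries and Ltbp1 and Ltbp4 uncalled in both sets.

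The 5 called members with a promoter window in the RefSeq-based table are shown because their levels differed between the groups, so that the letters next to their starts can be compared. Each sequence is the 250 bases before the annotated start, 5′ to 3′ on the gene's strand, from build GRCm38.p6, whose coordinates are those of mm10, and capitals mark the Smad box letters CAGAC on either strand (GTCTG where on the other strand). Ltbp2 lies at chr12:84876492-84876741 on the minus strand, Bmp6 at chr13:38345466-38345715 on the plus strand, Tgfb2 at chr1:186705990-186706239 on the minus strand, Bmper at chr9:23222826-23223075 on the plus strand and Bmp4 at chr14:46390670-46390919 on the minus strand.
Ltbp2: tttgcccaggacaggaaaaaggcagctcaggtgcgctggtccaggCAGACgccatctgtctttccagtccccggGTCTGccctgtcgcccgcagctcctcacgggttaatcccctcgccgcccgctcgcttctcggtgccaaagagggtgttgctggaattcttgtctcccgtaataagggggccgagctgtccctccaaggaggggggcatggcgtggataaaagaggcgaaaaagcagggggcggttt
Bmp6: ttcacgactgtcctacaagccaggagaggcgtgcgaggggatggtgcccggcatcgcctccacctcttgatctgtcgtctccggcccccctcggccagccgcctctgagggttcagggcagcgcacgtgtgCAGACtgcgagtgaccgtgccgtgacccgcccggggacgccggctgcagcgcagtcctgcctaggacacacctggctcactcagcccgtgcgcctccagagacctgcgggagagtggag
Tgfb2: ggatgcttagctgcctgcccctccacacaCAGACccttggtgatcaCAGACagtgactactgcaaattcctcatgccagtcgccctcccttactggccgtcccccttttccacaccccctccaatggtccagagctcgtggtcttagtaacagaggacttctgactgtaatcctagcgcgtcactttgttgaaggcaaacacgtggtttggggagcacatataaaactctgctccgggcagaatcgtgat
Bmper: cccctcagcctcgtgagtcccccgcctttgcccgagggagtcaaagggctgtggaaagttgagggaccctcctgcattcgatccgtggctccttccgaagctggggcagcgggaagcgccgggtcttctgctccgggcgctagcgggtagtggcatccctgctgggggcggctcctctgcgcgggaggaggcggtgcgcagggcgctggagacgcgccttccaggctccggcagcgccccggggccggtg
Bmp4: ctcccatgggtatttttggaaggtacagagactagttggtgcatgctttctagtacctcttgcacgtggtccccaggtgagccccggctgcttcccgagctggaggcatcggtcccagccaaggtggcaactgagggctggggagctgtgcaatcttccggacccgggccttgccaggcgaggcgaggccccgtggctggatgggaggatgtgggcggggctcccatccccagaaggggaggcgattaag
The Smad box letters occurred 2 times in the Ltbp2 window, 2 times in that of Tgfb2 and 1 time in that of Bmp6, and not in these windows of Bmper and Bmp4. Windows were matched for 27 of the 41 members. CAGAC was present on either strand in 11 of these 27 (40.74%) and in 42.19% of 32851 windows of the same length, so the share in the members was close to that in all windows. AGGTCA, the letters of the nuclear receptor half-site, was searched on both strands and was present in 1 of the 27, that of Grem1, and in 14.02% of all windows. A match of so few letters describes the sequence and is not a binding site.

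None of the 8 receptors among the members passed the test in all 12 libraries. Acvr1, the BMP type I receptor also known as ALK2, ranged from 41.8 to 44.1 CPM in control pools (median 42.8) and from 42.7 to 55.6 CPM in cKO pools (median 50.1). 5 of 6 cKO pools lay above every control pool, cKO 5, at 42.7 CPM, lay within the control range, and the log2 fold change was 0.20 (SE 0.07, edgeR adjusted p = 0.0863). In the 8 low-Xist libraries, where the groups did not overlap, it was 0.31 (SE 0.07, edgeR adjusted p = 0.0246). Acvr1 was the only receptor among the members called there.

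The type I receptors Bmpr1a and Bmpr1b were at 243 ± 34.5 and 7.24 ± 2.79 CPM in controls and at 221 ± 15.5 and 5.64 ± 1.08 CPM in cKO testes (SD, n = 6). Bmpr2, the BMP type II receptor, was at 221 ± 22.2 CPM in controls and 221 ± 18.7 CPM in cKO testes. Per kb of transcript, Bmpr1a was the receptor with the highest level in control testes, at 40.8 ± 5.79 CPM per kb, and Bmpr1b was that with the lowest, at 1.35 ± 0.522 CPM per kb. The TGF-beta receptors Tgfbr1 and Tgfbr2 were at 160.2 ± 10.8 and 64.9 ± 3.68 CPM in controls and at 171 ± 17.98 and 60.1 ± 9.28 CPM in cKO testes. Tgfbr3, encoding the co-receptor betaglycan that presents TGF-beta2, was at 95.2 ± 6.76 and 78.9 ± 12.9 CPM, with a log2 fold change of -0.27 (SE 0.10, edgeR adjusted p = 0.116) and of -0.088 over the 8 low-Xist libraries (edgeR adjusted p = 0.466). Its lowest values, 61.7 and 63.4 CPM, were again those of cKO 5 and cKO 6. Acvrl1, an endothelial type I receptor also known as ALK1, was at 41.1 ± 4.71 and 39.9 ± 5.43 CPM. The summed level of the 8 receptors was 827 to 940 CPM in controls and 822 to 878 CPM in cKO testes.

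None of the 8 Smads passed the test in either set of libraries. The BMP-responsive Smad1, Smad5 and Smad9 were at 25.7 ± 2.84, 259 ± 15.7 and 7.93 ± 1.55 CPM in controls and at 22.9 ± 2.41, 234 ± 13.0 and 8.35 ± 0.695 CPM in cKO testes (SD, n = 6). The TGF-beta-responsive Smad2 and Smad3 were at 145 ± 5.09 and 106 ± 32.1 CPM in controls and at 148 ± 4.77 and 107 ± 10.2 CPM in cKO testes. Smad4, the common partner, was at 115 ± 14.9 and 124 ± 9.11 CPM. The inhibitory Smad6 was at 23.2 ± 2.02 CPM in controls and 27.5 ± 2.94 CPM in cKO testes, with a log2 fold change of 0.25 (SE 0.09, edgeR adjusted p = 0.0981), and Smad7 was at 55.3 ± 7.15 and 56.5 ± 7.602 CPM. Their sum was 706 to 844 CPM in controls and 715 to 743 CPM in cKO testes.

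The 4 Id genes, which encode inhibitors of basic helix-loop-helix transcription factors, did not pass the test either. Id1 was at 41.6 ± 17.2 CPM in controls and 43.9 ± 17.4 CPM in cKO testes, Id3 at 83.2 ± 8.12 and 88.5 ± 7.61 CPM, and Id4 at 16.8 ± 1.39 and 18.3 ± 2.94 CPM (SD, n = 6). Id2 was at 61.5 ± 13.1 and 47.2 ± 7.62 CPM, with a log2 fold change of -0.37 (SE 0.14, edgeR adjusted p = 0.11), and 5 of 6 cKO pools lay under every control pool while cKO 3 did not. For Id1 the spread came from control 1 at 75.7 CPM and cKO 3 at 77.4 CPM. A value that misses the threshold does not show that receptors, Smads or Id genes were equal between the groups. RNA levels carry no information on phosphorylated Smads.

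**Figure D3:**
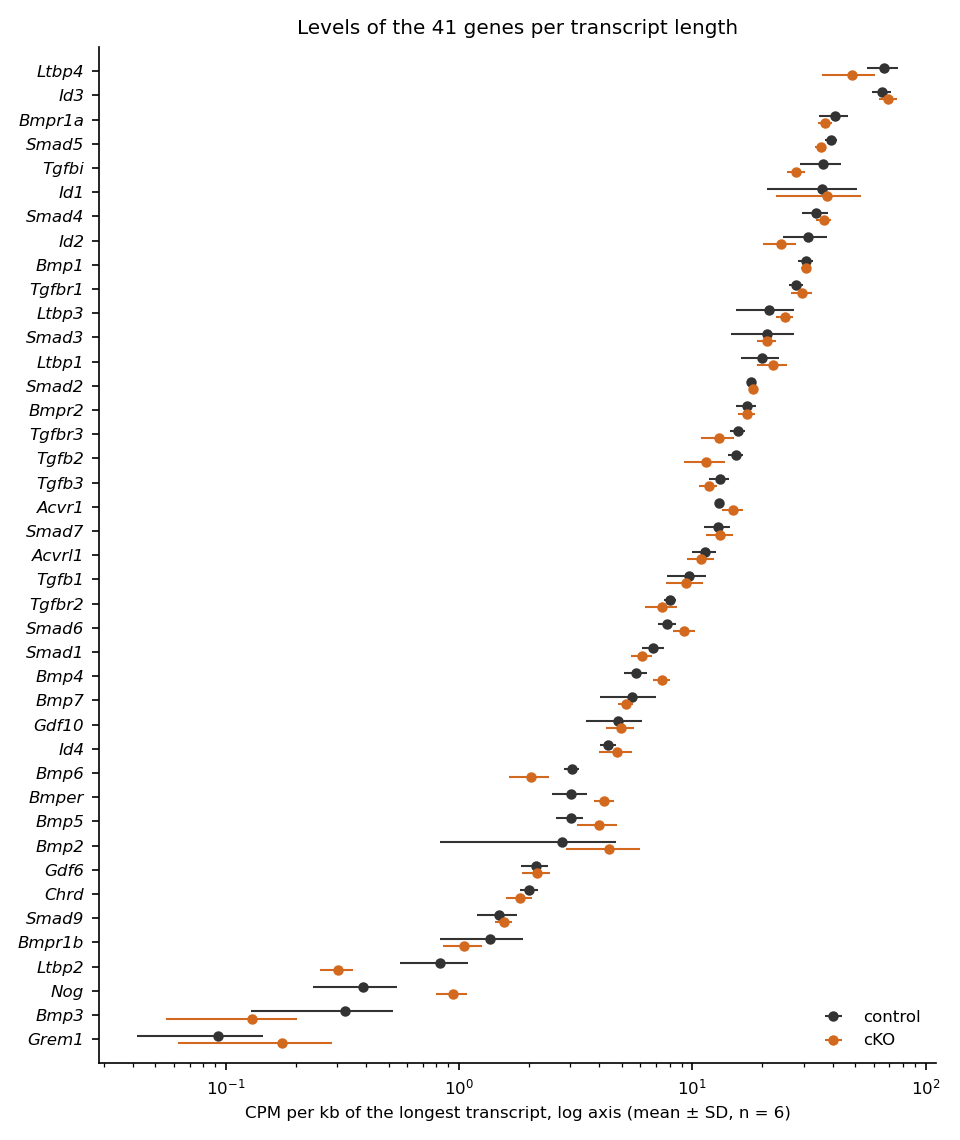
Mean CPM per kb of the longest transcript is plotted on a log axis for each of the 41 members in control and cKO testes, with bars for the SD (n = 6). Levels ran from Grem1 and Bmp3 at the low end to Ltbp4 and Id3 at the high end, and the called members lay mostly in the lower part.

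The members covered a wide range of levels. Per kb of the longest transcript, Ltbp4 (66.1 ± 10.2 CPM per kb) and Id3 (65.1 ± 6.35 CPM per kb) were highest in control testes and did not differ beyond their spread. Bmpr1a, Smad5, Tgfbi and Id1 came next, at 40.8 ± 5.79, 39.4 ± 2.39, 36.3 ± 7.28 and 35.9 ± 14.9 CPM per kb, again within their spread, and over the union of exons Id1 lay above Smad5. The lowest were Ltbp2 at 0.828 ± 0.268, Nog at 0.39 ± 0.153, Bmp3 at 0.324 ± 0.196 and Grem1 at 0.0928 ± 0.0511 CPM per kb (SD, n = 6). Of these 4, Ltbp2, Nog and Bmp3 were called. BMP ligands were all under 6 CPM per kb in control testes, where Bmp4, at 5.74 ± 0.653 CPM per kb, and Bmp7, at 5.50 ± 1.48 CPM per kb, were the highest of them.

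Over the 8 low-Xist libraries, 9 of 41 members were called (21.95%, beside 7.08% of all genes tested there), 2 lower (4.88%, beside 3.39%) and 7 higher (17.1%, beside 3.68%). The lower ones were Ltbp2 and Bmp6, and the higher ones were Bmp2, Bmp4, Bmp5, Acvr1, Nog, Bmper and Ltbp3. Of the 7 members called in all 12 libraries, 5 were called here too, and Tgfb2 and Bmp3 were not. 33 of the 41 kept the sign of their log2 fold change, and the other 8 had uncalled values in both sets. With log2 CPM of Xist as a covariate in all 12 libraries, 11 members were called (26.8%, beside 8.28% of all genes), adding Acvr1, Bmp5, Bmpr1b, Grem1 and Tgfbi and losing Tgfb2 (edgeR adjusted p = 0.0577). DESeq2, the tool the study's methods name, called 10 members (24.4%, beside 11.6% of all genes), adding Acvr1, Bmp5 and Tgfbi.

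**Figure D4:**
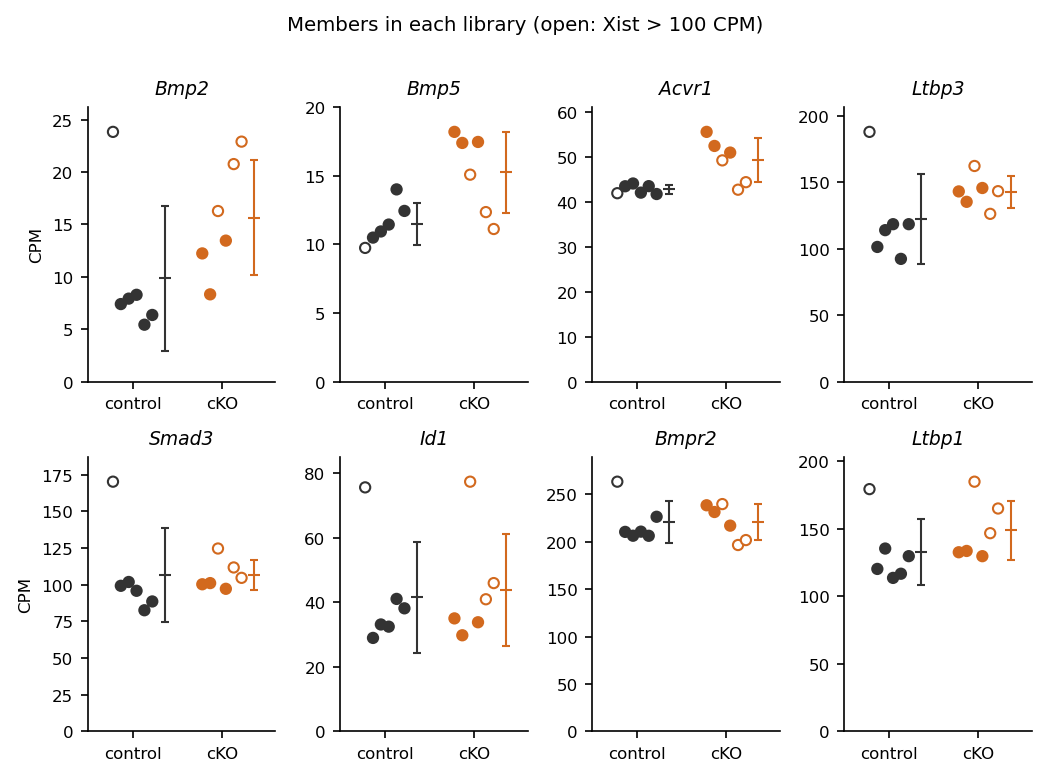
CPM of members whose calls or values moved with the libraries of high Xist is plotted by pool, with open symbols for Xist over 100 CPM and the mean and SD (n = 6) beside the points. Control 1 lay far above the other controls for Bmp2, Ltbp3, Smad3 and Id1, and cKO 5 and cKO 6 were the lowest cKO pools for Bmp5 and Acvr1.

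cKO 5 and cKO 6 also had the lowest Nr2f2, at 50.2 and 53.6 CPM, and the lowest summed level of 6 interstitial progenitor markers, at 723 and 809 CPM beside 940 to 1161 CPM in the other cKO pools. A count chosen after these values were seen gave 15 members (36.6%) for which cKO 5 and cKO 6 were the lowest of the 6 cKO pools, beside 25.1% of all genes tested. Among these were Tgfb2, Bmp5, Bmp6, Acvr1, Tgfbr3 and Ltbp4. They were the highest cKO pools for 6 members (14.6%, beside 24.5% of all genes), which were Bmp2, Bmpr1a, Tgfbr1, Smad5, Chrd and Tgfbi. Other marker sums of cKO 5 and cKO 6 also lay outside those of the other 4 cKO pools. Fetal Leydig markers were at 841 and 932 CPM beside 1311 to 1745 CPM, Sertoli markers at 698 and 638 CPM beside 828 to 1121 CPM, germ cell markers at 1662 and 1646 CPM beside 1365 to 1438 CPM, and ovarian supporting markers at 186 and 170.1 CPM beside 54.5 to 125 CPM. Low Nr2f2, these marker shifts and high Xist cannot be told apart in these 2 pools.

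Cell type markers moved with the groups as well. All 6 smooth muscle markers, 4 of 5 fetal Leydig cell markers and 2 of 6 interstitial progenitor markers (Tcf21 and Wnt5a) were lower in cKO testes, with summed levels of 336 to 460, 1561 to 2910 and 1082 to 1377 CPM in controls and 183 to 291, 841 to 1745 and 723 to 1161 CPM in cKO testes. Of 6 macrophage markers 2 were higher, with sums of 43.3 to 63.6 CPM in controls and 62.3 to 75.2 CPM in cKO testes, and so were 2 of 4 mesonephric epithelium markers, with sums of 6.35 to 12.6 and 13.3 to 18.9 CPM. Among 10 endothelial markers 1, Tek, was lower, with sums of 418 to 597 and 415 to 510 CPM. Among 5 ovarian supporting markers 1, Wnt4, was lower, with sums of 74.6 to 291 and 54.5 to 186 CPM. In the 8 low-Xist libraries Wnt4 was again lower, while 2 others of that list were higher in cKO testes, Foxl2 (log2 fold change 1.45, edgeR adjusted p = 0.00958) and Fst (0.62, edgeR adjusted p = 0.0216). None of 6 Sertoli or 6 germ cell markers was called, with sums of 663 to 1121 and 1061 to 1734 CPM in controls and 638 to 1121 and 1365 to 1662 CPM in cKO testes. Of the other lists, the 8 low-Xist libraries gave 5 of 6 smooth muscle, 4 of 5 fetal Leydig and 2 of 6 interstitial markers lower, 2 of 6 macrophage markers higher and no call among endothelial, Sertoli, germ cell or mesonephric markers. No marker was at 0 in all libraries. The part of these shifts in the members' differences was not tested, and in bulk RNA fewer cells of a type and less RNA per cell cannot be told apart.

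A list of 65 other genes of the pathways, all in the table, was read beside the members. Of the 55 that could be tested, 6 (10.9%) were called, a share near the 8.13% of all genes. 5 were lower and 1 was higher in cKO pools, and the list's median log2 fold change was -0.01. Nbl1, encoding a BMP antagonist of the DAN family, was at 36.6 ± 4.51 CPM in controls and 20.3 ± 3.97 CPM in cKO testes (log2 fold change -0.84, edgeR adjusted p = 0.000903), and Sostdc1, a BMP and Wnt antagonist, was at 43.7 ± 9.28 and 25.9 ± 8.43 CPM (-0.75, 0.0377). Both had the opposite sign to Nog and Bmper, so secreted BMP-binding proteins did not move together. Emilin1, a matrix protein that limits processing of the TGF-beta precursor, was at 310.4 ± 21.8 and 217 ± 33.9 CPM (-0.52, 0.00449). Thbs1, encoding thrombospondin-1, an activator of latent TGF-beta, was at 106 ± 41.2 and 67.3 ± 5.92 CPM (-0.67, 0.0338). Its control median was 91.6 CPM and its highest control value 189 CPM, and in the 8 low-Xist libraries its log2 fold change was -0.39 (edgeR adjusted p = 0.0391). Twsg1, a BMP-binding partner of chordin, was at 176 ± 5.25 and 153 ± 8.32 CPM (-0.20, 0.0333), and its call was lost in the 8 low-Xist libraries (-0.16, edgeR adjusted p = 0.143).

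The single higher gene of that list was Acvr1c, encoding the type I receptor ALK7. It ranged from 1.34 to 2.60 CPM in control pools (median 2.14) and from 4.03 to 6.85 CPM in cKO pools (median 5.22), without overlap, and the log2 fold change was 1.40 (SE 0.19, edgeR adjusted p = 0.000586). It was 1.62 over the 8 low-Xist libraries (edgeR adjusted p = 0.00217). There, 8 of 54 genes tested from the list were called (14.8%, beside 7.08% of all genes), 5 lower and 3 higher. Twsg1 was no longer among the lower ones and Tgfb1i1, a TGF-beta-induced focal adhesion gene, was (-0.40, edgeR adjusted p = 0.0433), while Nrros and Furin joined Acvr1c among the higher ones. The count of 6 called genes rested in part on single libraries: it was 13 without control 1, 11 without control 5, and 3 without control 3, without cKO 4 or without cKO 6. The 10 genes of the list that could not be tested, Bmp10, Gdf1, Gdf2, Gdf5, Gdf7, Mstn, Hjv, Chrdl2, Cer1 and Itgb6, had at most 37 read pairs in any library.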

How the data were processed

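Whole-testis RNA-seq of 6 control and 6 cKO pools was used. The deposited table holds counts of read pairs per gene: per the submitters' processing notes and the study's methods, the authors trimmed reads with Trim Galore 0.6.7, aligned them to mm10 with STAR 2.5 and counted them by strand over RefSeq Curated gene models with featureCounts of Subread 1.5.0-p1. Samples were grouped by their labels, and 0 columns of per-sample values were left unused.

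The counts went into edgeR 4.0.16 under R 4.3.3. Genes passed filterByExpr (minimum count 10, minimum total 15), libraries were scaled by TMM, and glmQLFTest compared 6 cKO with 6 control libraries without a covariate. Adjustment of p-values was that of Benjamini and Hochberg, over all genes tested, with a threshold of 0.05. Standard errors are the absolute log2 fold change divided by the square root of F. CPM values use library sizes scaled by TMM, and levels per kb use GENCODE lengths of the longest transcript. The script was tested on simulated data. Alternatives were other scalings and filters, DESeq2 1.42.0, limma-voom 3.58.1, a replicate block, each library left out in turn, the 8 libraries with Xist under 100 CPM, and Xist as a covariate. Figures were drawn with matplotlib 3.10.9. Total counts set the precision of low values, and p-values are for the spread between pools.

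The members and gene lists were chosen with earlier results of these data known. Each member is named with its mean and SD or its range. Those called, those whose groups do not overlap and those whose call differs in the 8 libraries are given in full. Of other genes, only Nr2f2, Xist, fixed markers and called genes of the other pathway list are named with values, beside the list's untested genes.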

Additional observations from a re-analysis of the deposited data

Results flagged for a closer look

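In 10 of 82 groups of 6 pools (41 members in control and in cKO testes), 1 pool lay so far from the other 5 that its gap to the nearest exceeded Dixon's critical share of the group's range. Chance gives about 1 in 20 such groups. Of the 10, 9 were in libraries with Xist over 100 CPM.

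Control 1 was the highest control pool for Bmp2 (23.8 CPM, next 8.29), Bmpr2 (263 CPM, next 226), Smad3 (170.3 CPM, next 102), Id1 (75.7 CPM, next 41.1), Ltbp1 (179 CPM, next 135) and Ltbp3 (188 CPM, next 119). In cKO testes, Id1 was highest in cKO 3 (77.4 CPM, next 46.0), Chrd was highest in cKO 5 (10.04 CPM, next 8.05) and Smad1 was lowest in cKO 5 (18.2 CPM, next 23.2). Bmp3 was highest in cKO 2 (1.78 CPM, next 0.890), a library with low Xist. The cause was not tested.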

How the results depend on the processing

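The number of genes called, 1266, was 1919 with DESeq2 and 816 to 3106 with 1 library left out. The number of members called, 7, was 11 with Xist as a covariate and 3 to 8 with 1 library left out. The number of other pathway genes called, 6, was 12 with DESeq2 and 3 to 13 with 1 library left out. Ltbp2 and Bmp6 were called in 21 of 21 alternatives, Nog and Bmper in 20, Bmp4 in 17, and Tgfb2 and Bmp3 in 9 each. With a replicate block, 931 genes and 5 members were called (Bmp4, Bmp6, Bmper, Ltbp2 and Ltbp4), and Nog had an edgeR adjusted p of 0.0529. Same-numbered libraries had deviations correlated at -0.33 to 0.24, and 0 controls correlated best with their own number, so these correlations showed no pairing by number. They cannot tell whether pools shared litters, which the labels do not give.

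The sign changed in 45 values of 13 members, none of them called. Among the 8 low-Xist libraries the log2 fold changes were 0.020 for Bmp7, -0.0022 for Gdf6, 0.16 for Tgfb1, -0.010 for Tgfbr1, 0.042 for Tgfbr2, 0.12 for Acvrl1, 0.090 for Smad3 and -0.063 for Id1. With Xist as a covariate they were 0.0013 for Tgfb1, -0.013 for Bmpr2, -0.012 for Smad9 and -0.15 for Id1. For Smad3 they were 0.0018 with upper-quartile scaling, 0.0017 with DESeq2, 0.025 with limma-voom and 0.039 with the replicate block. With 1 library left out they ranged from -0.18 to 0.034 for Bmp7, -0.027 to 0.092 for Gdf6, -0.0072 to 0.19 for Gdf10, -0.12 to 0.035 for Tgfb1, -0.023 to 0.058 for Bmpr2, -0.087 to 0.017 for Acvrl1, -0.060 to 0.18 for Smad3, -0.029 to 0.076 for Smad7, -0.029 to 0.15 for Smad9, -0.17 to 0.35 for Id1 and -0.027 to 0.017 for Bmp1. The cause was not tested. Levels per kb had the same highest 2 members with the union of exons. Depth limits Nog, Bmp3 and Grem1 most, with 4, 4 and 1 read pairs in their lowest libraries.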
